A study of Mus musculus with 9 samples.

Results

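The 3 arrays of cortical neurons and cortical precursors grown together were set against the 3 arrays of cortical precursors grown alone, 6 of the 9 arrays of a study of the embryonic mouse cortex. The members were chosen by the sample titles alone, and no measured value entered that choice. All cultures came from wild-type CD1 mice. Precursors were taken from embryos at day 13 of gestation (E13) and kept for 1 day in culture. For the co-culture, neurons from E16 embryos were grown for 4 days, E13 precursors were then added on top, and both were kept together for 1 further day. The 3 arrays of neurons alone, also from E16 embryos and given 5 days in culture in all (4 days in another label), are quoted beside many of the results because neuron RNA is part of every co-culture sample. Each group had 3 biological replicates, each array was prepared from 100 ng of total RNA, and the labels do not say which embryos or litters went into which replicate. The p-values therefore measure the spread between these arrays.

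Radial precursors line the ventricle of the developing cortex, divide, and give rise to neurons directly or through intermediate progenitors; they keep the precursor state partly through Notch signalling. Young cortical neurons are known to act back on precursors by secreted ligands and by contact, and the precursors carry the matching receptors. In neurons, electrical activity and calcium entry switch on a first set of transcription factors, the immediate early genes, which in turn act on later genes of the synapse.

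The values are log2 expression levels of probe sets, and a difference of 1 is a 2-fold change. Of 22180 genes with a named probe set, 13012 lay above the array median in at least 3 arrays and were tested. Some named genes had all 3 precursor values under the array median and passed this filter only through co-culture or neuron arrays. Among these were Gabrb1, Npy1r, Kcna4, Pcsk1, Penk, Cdh9, Spock3, Mir380 and Mir690, so their differences start from low precursor levels. A gene was called higher or lower when limma's moderated test gave an adjusted p under 0.05, and a difference is always the co-culture mean minus the precursor mean. The arrays were alike in scale, with medians between 6.75 and 6.80, and correlated with each other at 0.9891 to 0.9935 between co-culture and precursors, at 0.9905 to 0.9925 among precursors and at 0.9931 to 0.9944 among co-cultures. The labelled cell types were checked on their markers: of the neuron markers, Nefl was lowest in precursors (7.93, 7.78 and 7.90), intermediate in the co-culture (8.54, 8.48 and 8.53) and highest in neurons (9.44, 9.47 and 9.50), whereas Mki67 of dividing cells was at 10.30, 10.24 and 10.28, at 10.16, 10.20 and 10.13 and at 7.12, 7.60 and 7.22 in the same order. Tubb3, a tubulin of young neurons, did not separate the groups, at 12.02, 11.93 and 11.94 in the precursor arrays, 11.94, 11.95 and 12.001 in the co-culture arrays and 11.95, 11.96 and 11.95 in the neuron arrays. Nefm, another neurofilament gene, lay below the filter, with means of 6.56 in precursors, 6.55 in co-culture and 6.57 in neurons. Of the 8 neuron markers 7 were tested, and 4 of these were called higher in the co-culture.

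In the co-culture 1069 genes were higher than in precursors alone (8.22% of the genes tested) and 26 were lower (0.2%), 1095 in either direction (8.42%). The counts given for each gene list below stand against these shares. The changes were small: 209 genes rose at least 1.5-fold, 53 at least 2-fold (0.407%), 3 fell at least 1.5-fold and 0 fell at least 2-fold. Among the called genes the median difference was 0.36 for the rises and -0.27 for the falls, and over all tested genes it was 0.020, with 58.8% of the differences above 0. The 3 co-culture values lay above all 3 precursor values for 2526 genes (19.4%) and below them for 703 (5.4%). Set beside neurons alone, 1064 of the 1069 higher genes had a neuron mean above the precursor mean, and 1056 had a neuron mean above the co-culture mean as well. For 1043 of these the co-culture was also called lower than neurons, against 24.9% of all tested genes called lower than neurons and 35.7% called higher. In bulk RNA of a mixed culture, fewer cells of a type and less RNA per cell cannot be told apart, and the rises of these 1056 genes cannot be told apart from neuron RNA in the sample. Without co-culture replicate 2 the count of higher genes was 676, and the count of lower genes was 7, 10, 14 and 52 when co-culture replicate 1, co-culture replicate 2, precursor replicate 2 and neuron replicate 2 were left out in turn. Co-culture and precursor arrays of the same number varied together, and with that number as a block over all 9 arrays 42 genes were lower and 1044 higher. With the block on only the 6 arrays compared, 65 were lower and 1097 higher.

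The largest rise belonged to Necab1, a neuronal calcium-binding protein. Its precursor values were 6.75, 6.80 and 6.74, its co-culture values 9.87, 9.87 and 9.87, and its neuron values 11.26, 11.42 and 11.33. The co-culture arrays were all far above the precursor arrays and all below the neuron arrays, a difference of 3.10 (SE 0.049, 8.60-fold, adjusted p = 1.46e-09). Vsnl1, the calcium sensor visinin-like 1, followed with 8.21, 7.94 and 8.01 in precursors, 10.26, 10.26 and 10.26 in co-culture and 11.80 ± 0.13 (SD, n = 3) in neurons, a 4.61-fold rise (adjusted p = 4.61e-07). Gabrb1, a subunit of the GABA-A receptor, stood at 6.73, 6.70 and 6.74 and at 8.84, 8.77 and 8.62, a 4.06-fold rise (adjusted p = 2.64e-07). In each of these genes the groups did not overlap, and in Necab1 and Vsnl1 the co-culture arrays printed the same value to 2 decimals, a feature of the deposited values returned to below.

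The next ranks held transcription factors of neuronal activity, described further on, together with signalling genes. Rgs4, which ends the signal of G proteins, was at 6.79, 7.30 and 6.80 in precursors and 8.86, 8.86 and 8.86 in the co-culture (3.72-fold, adjusted p = 1.00e-05). Npy1r, a receptor for neuropeptide Y, was at 5.94, 5.94 and 5.99 and 7.67, 7.74 and 7.67 (3.32-fold, adjusted p = 1.60e-07). Its precursor values all lay under the array medians. Grm3, a metabotropic glutamate receptor, was at 7.15, 7.12 and 6.83 and 8.73, 8.81 and 8.70 (3.27-fold, adjusted p = 1.89e-06). Precursor replicate 2 was the highest precursor array for Rgs4, and no co-culture array overlapped the precursor arrays for any of the 3 genes. Slc7a8, an amino acid transporter, rose 3.29-fold, Gucy1a1, a subunit of the nitric oxide receptor guanylate cyclase, 2.99-fold, Chl1, a cell adhesion molecule of the L1 family, 2.95-fold, and Plppr5, a membrane protein of growing neurites, 2.92-fold. The transcripts B230209E15Rik and A830018L16Rik rose 2.88-fold and 2.78-fold. All 15 of the largest rises kept their call under all 21 alternative settings that were run and had a neuron mean above the co-culture mean.

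**Figure D1:**
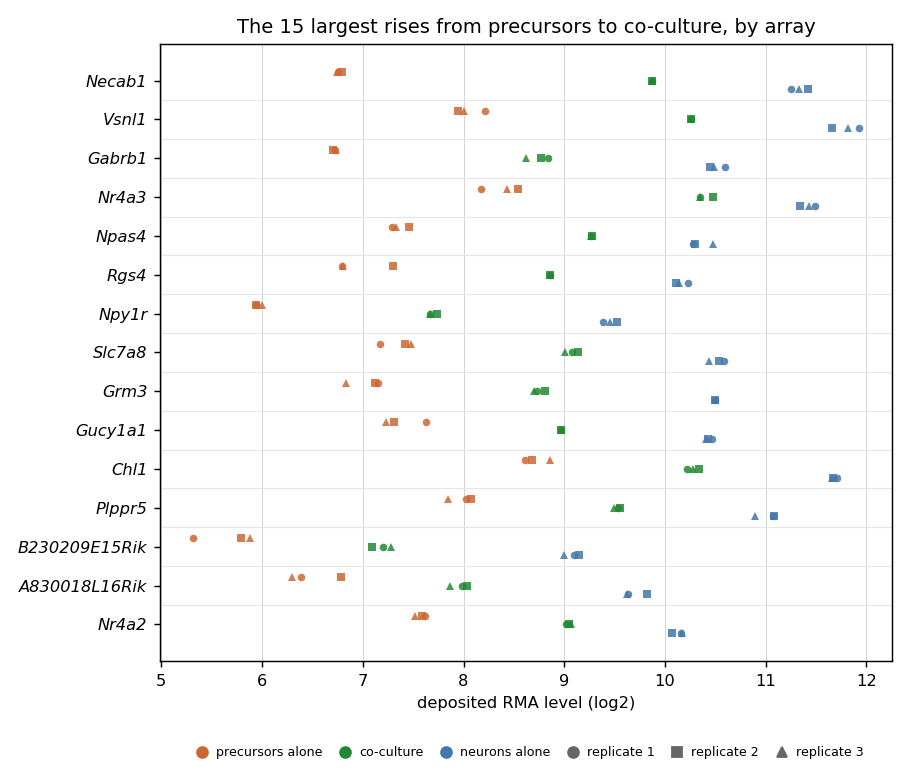
Log2 level on the horizontal axis for the 15 genes that rose most, 1 row per gene, with 1 point per array for precursors, co-culture and neurons. In every row the 3 co-culture points lie between the precursor and the neuron points, and for Necab1 they lie near 9.87 against 6.74 to 6.80 in precursors.

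Calcium sensors and calcium-binding proteins made up a list of 20 tested genes, of which 8 rose and 0 fell (median difference 0.27 against 0.020 over all tested genes; at an unadjusted p under 0.05, 12 were higher and 1 lower). Beside Necab1 and Vsnl1 these were Camk2b (1.64-fold) and Camk2a (1.39-fold), the main subunits of calcium/calmodulin-dependent kinase II, Kcnip4 (1.61-fold), which binds potassium channels, Calb1 (1.58-fold), the buffer calbindin, Necab2 (1.20-fold), and Camk4 (1.25-fold), a nuclear kinase. Camk4 did not pass with co-culture replicate 2 left out (adjusted p = 0.0511), nor with the mean of its probe sets (0.0877). Calretinin (Calb2), a buffer found in subsets of interneurons and in Cajal-Retzius cells, pointed the other way, with 8.89, 9.05 and 9.11 in precursors, 8.60, 8.86 and 8.82 in co-culture and 7.86 ± 0.060 in neurons. All 3 co-culture values lay below the precursor values, and the difference of -0.26 did not pass (adjusted p = 0.102) but did with the replicate block (0.0339).

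Receptors for glutamate and GABA rose as far as they were called. GABA-A receptor subunits were higher in 8 of 9 cases, with a median difference of 0.80. Gabra5 was at 8.51, 8.65 and 8.76 in precursors and 9.996, 10.04 and 9.99 in the co-culture, with no overlap, and at 11.34 ± 0.13 in neurons (2.59-fold, adjusted p = 5.61e-06). Gabra4 rose 2.42-fold, Gabrg1 1.86-fold, Gabra2 1.74-fold, Gabrb2 1.55-fold, Gabrg3 1.51-fold and Gabra3 1.48-fold, with adjusted p between 2.02e-05 (Gabra4) and 0.000538 (Gabrb2). Of 5 NMDA receptor subunits 3 rose. Grin2b, the subunit that prevails before birth, moved from 8.62, 8.73 and 8.69 to 9.56, 9.58 and 9.55, whereas Grin2a, which replaces it later, moved from 5.61, 4.75 and 5.26 to 6.44, 6.44 and 6.44. For both genes the co-culture arrays were tightly grouped above the precursor arrays, and for Grin2a the precursor arrays were spread, with replicate 2 lowest. The differences were 0.88 (SE 0.043, adjusted p = 2.14e-06) and 1.23 (SE 0.18, adjusted p = 0.00233), and Grin3a differed by 0.42. All 6 Grin2a values lay under the array medians of 6.75 to 6.80, so Grin2a passed the filter through the neuron arrays only. Grin2d had 6.97, 6.21 and 6.57 in precursors and 6.94, 6.97 and 6.95 in the co-culture, which overlapped (0.37, adjusted p = 0.243), and passed without precursor replicate 1 (adjusted p = 0.0150).

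Among 14 AMPA and kainate receptor genes 8 rose (median 0.30). Gria1 went from 8.15, 8.08 and 8.22 to 9.04, 9.04 and 9.02 (1.84-fold, adjusted p = 3.32e-06) and Grik1, a kainate receptor subunit, from 7.04, 7.11 and 7.10 to 7.79, 7.79 and 7.76 (1.62-fold, adjusted p = 2.13e-05). Neither gene had overlapping groups. Cnih3, Cacng2 and Cacng3, auxiliary proteins that accompany AMPA receptors, rose 1.49-fold, 1.41-fold and 1.40-fold, and Gria3 and Grik2 rose 1.35-fold and 1.24-fold. Gria2, whose subunit limits calcium entry, differed by 0.29 (adjusted p = 0.0368) and did not pass with neuron replicate 1 or 3, precursor replicate 1 or 2, or co-culture replicate 2 or 3 left out (adjusted p = 0.0541 to 0.155). Of 5 metabotropic glutamate receptors 3 rose, Grm3 and Grm5 (2.72-fold) most and Grm2 1.33-fold, while Grm7 differed by 0.19 with overlapping groups (adjusted p = 0.340); with the mean of its probe sets Grm7 passed, at a difference of 0.53 (adjusted p = 0.00220).

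Among channels and pumps that set excitability, the called genes were all higher. Of 18 voltage-gated sodium and calcium channel genes 10 were higher, and the differences of all 18 were above 0 (median 0.35). Scn2a, the main sodium channel of young axons, was at 7.66, 7.81 and 7.74 in precursors and 8.59, 8.72 and 8.57 in the co-culture (1.85-fold, adjusted p = 2.46e-05), and Scn1a rose 1.85-fold and Cacna1e, an R-type calcium channel, 1.43-fold. Of 20 potassium channel genes 10 were higher (median 0.30), and 2 differences were below 0. Kcna4, which carries a fast inactivating current, moved from 6.30, 6.41 and 6.14 to 7.62, 7.64 and 7.66 and Kcnk9, a leak channel, from 7.04, 6.90 and 7.49 to 8.40, 8.40 and 8.40. The co-culture arrays stood clear of the precursor arrays for both, and the rises were 2.56-fold (adjusted p = 5.36e-06) and 2.39-fold (adjusted p = 0.000175), followed by Kcnj3 (2.02-fold) and Kcnd2 (1.90-fold). Of 11 genes for chloride and sodium gradients 7 rose (median 0.39), and 1 difference was below 0. Atp1b1, the beta subunit of the sodium pump, was at 10.37, 10.26 and 10.31 and 11.32, 11.32 and 11.32 (2.00-fold, adjusted p = 1.05e-06), and Slc12a5, the chloride exporter KCC2 that makes GABA inhibitory, at 7.69, 7.59 and 7.75 and 8.02, 8.10 and 8.10 (1.31-fold, adjusted p = 0.000939). The calcium pumps Atp2b2 and Atp2b1 rose 1.38-fold and 1.29-fold and the exchanger Slc8a1 1.56-fold. Atp2b3 rose 1.53-fold but did not pass with precursor replicate 1 or 2, or co-culture replicate 1 left out (adjusted p = 0.0532 to 0.0540).

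Among genes of transmitter release and of the synaptic membrane, the called genes were again all higher. Of 28 vesicle release genes 15 rose and 0 fell, with a median of 0.33; at an unadjusted p under 0.05, 20 were higher and 1 lower. The lower one was Unc13c, a priming factor of synaptic vesicles chosen after its values were seen, at 7.27, 7.42 and 7.38 in precursors and 7.03, 6.94 and 7.03 in the co-culture (-0.35, adjusted p = 0.0608). Syn1, the vesicle coat protein synapsin, was at 9.06, 9.12 and 9.23 in precursors, 9.90, 9.90 and 9.90 in co-culture and 10.98 ± 0.094 in neurons (1.70-fold, adjusted p = 4.32e-05). Syt4 and Syt5 of the synaptotagmin family rose 1.70-fold and 1.61-fold, and Cplx1, the fusion regulator complexin 1, 1.66-fold. Of 18 postsynaptic scaffold genes 9 rose (median 0.23), led by Dlg2 (1.85-fold), which anchors NMDA receptors, Lrrtm2 (1.66-fold), an adhesion protein of excitatory synapses, and the scaffold Shank1 (1.48-fold). Nrgn, neurogranin, was at 7.03, 6.65 and 6.55 in precursors and 7.26, 7.24 and 7.22 in the co-culture. Its 1.41-fold rise did not pass with neuron replicate 1, precursor replicate 2 or 3, or co-culture replicate 1, 2 or 3 left out (adjusted p = 0.0621 to 0.141). Of 22 synaptic adhesion genes 14 rose (median 0.33), and the differences of all 22 were above 0. Cntn1, a contactin of axons, went from 8.83, 8.70 and 8.65 to 9.91, 9.83 and 9.75 (2.15-fold, adjusted p = 4.41e-06), and Cntnap5a and Cntn5 rose 1.79-fold and 1.59-fold.

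Of 20 genes of the neuronal cytoskeleton 10 rose (median 0.17). Nefl, the light neurofilament chain, rose 1.57-fold and Mapt, the microtubule protein tau, 1.48-fold, with smaller rises in Map1a (1.27-fold) and Stmn2 (1.26-fold). Tubb3 differed by 0.0014 (SE 0.042). Among 18 neuronal RNA-binding proteins 4 rose, 22.2% against 8.22% of all tested genes. Rbfox1, a splicing regulator of neurons, was at 9.47, 9.34 and 9.33 and 10.20, 10.15 and 10.15 (1.73-fold, adjusted p = 1.40e-05), and Khdrbs2 rose 1.61-fold. The other two were Celf4 (0.18, adjusted p = 0.0204) and Nova2 (0.15, adjusted p = 0.0418). Celf4 did not pass with precursor replicate 2 or 3, or co-culture replicate 1 or 3 left out (adjusted p = 0.0576 to 0.0845), nor Nova2 with neuron replicate 1 or 3, precursor replicate 1, 2 or 3, or co-culture replicate 1, 2 or 3 left out (adjusted p = 0.0516 to 0.144) or with the block (0.0766) or the mean of its probe sets (0.225).

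**Figure D2:**
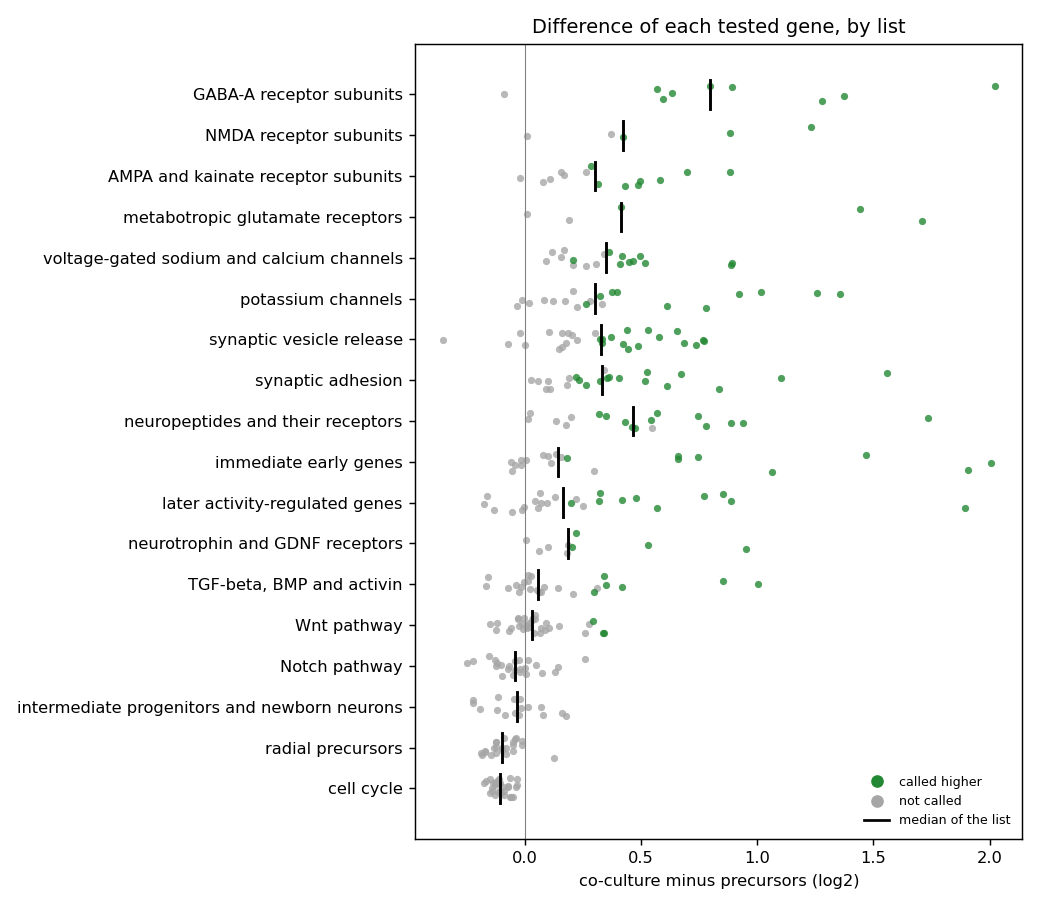
Difference of each tested gene (co-culture minus precursors, log2) on the horizontal axis for 18 of the gene lists, 1 row per list, with called genes marked apart from genes not called and the list median as a bar. Glutamate and GABA receptor, channel and synapse lists have medians between 0.30 and 0.80, and the neurotrophin and GDNF receptor list has 0.18. The cell cycle list has all 29 points below 0 with none called.

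Immediate early genes, which respond within minutes to activity or growth factors, were higher in 8 of 20 cases, and 0 fell (median 0.14). Nr4a3 of the Nur77 family of orphan receptors was at 8.18, 8.54 and 8.43 in precursors, 10.35, 10.48 and 10.34 in co-culture and 11.49, 11.34 and 11.43 in neurons (difference 2.01, SE 0.088, 4.02-fold, adjusted p = 1.42e-06). Npas4, a factor switched on by calcium entry in neurons, was at 7.29, 7.46 and 7.33, 9.27, 9.27 and 9.27 and 10.28, 10.30 and 10.48 (1.91, SE 0.064, 3.75-fold, adjusted p = 2.87e-07). Nr4a2 was at 7.62, 7.59 and 7.52, 9.02, 9.05 and 9.06 and 10.16, 10.07 and 10.17 (2.77-fold, adjusted p = 2.64e-07). In all 3 genes the 3 groups were fully separated, with the co-culture in the middle. Nr4a1, the third Nur77-type receptor, was at 8.89, 8.70 and 8.82 and 9.87, 9.87 and 9.86 (2.09-fold, adjusted p = 5.66e-06). Fos, the founding member of the Fos family, was at 7.20, 7.19 and 7.21 and 7.86, 8.04 and 7.93 (1.67-fold, adjusted p = 1.83e-05). The related Fosl2 and Fosb rose 1.58-fold and 1.58-fold. Dusp1, a phosphatase of MAP kinases, differed by 0.18 (adjusted p = 0.0429) and did not pass with neuron replicate 1 or 3, precursor replicate 2 or 3, or co-culture replicate 1, 2 or 3 left out (adjusted p = 0.0539 to 0.170), nor with the block (0.0784).

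The bases before the start of 4 of these genes are shown because they are among the 8 genes of the list that rose and because the cAMP response element, bound by CREB, is a known entry point of calcium signals into immediate early genes. Each sequence is the 250 bases before the annotated start, 5′ to 3′ on the gene's own strand, from the RefSeq annotation of GRCm38.p6, with every TGACG or CGTCA (the 5-letter core of that element on either strand) in capitals.
Npas4, chr19:4989972-4990221, minus strand: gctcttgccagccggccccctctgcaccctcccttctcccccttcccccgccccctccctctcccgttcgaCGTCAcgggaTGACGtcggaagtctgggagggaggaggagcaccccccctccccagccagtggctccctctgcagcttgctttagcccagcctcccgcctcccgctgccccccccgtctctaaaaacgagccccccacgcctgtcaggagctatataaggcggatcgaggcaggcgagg
Nr4a3, chr4:48045055-48045304, plus strand: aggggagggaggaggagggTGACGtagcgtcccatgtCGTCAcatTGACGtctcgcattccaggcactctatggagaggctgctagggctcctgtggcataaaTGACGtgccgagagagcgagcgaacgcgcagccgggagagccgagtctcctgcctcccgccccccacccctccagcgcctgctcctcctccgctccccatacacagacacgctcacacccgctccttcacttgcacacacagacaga
Nr4a1, chr15:101266596-101266845, plus strand: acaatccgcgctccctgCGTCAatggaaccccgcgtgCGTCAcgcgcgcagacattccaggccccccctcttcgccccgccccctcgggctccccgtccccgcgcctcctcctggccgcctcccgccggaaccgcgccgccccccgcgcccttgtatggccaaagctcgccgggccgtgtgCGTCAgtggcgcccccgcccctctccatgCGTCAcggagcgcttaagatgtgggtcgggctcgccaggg
Fos, chr12:85473640-85473889, plus strand: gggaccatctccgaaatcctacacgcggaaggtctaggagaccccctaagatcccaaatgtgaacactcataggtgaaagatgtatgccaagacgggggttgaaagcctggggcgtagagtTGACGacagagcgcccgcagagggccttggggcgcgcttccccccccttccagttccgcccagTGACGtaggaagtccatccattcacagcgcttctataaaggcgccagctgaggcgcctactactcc
The core occurred 2 times before Npas4, 4 times before Nr4a3, 4 times before Nr4a1 and 2 times before Fos, and also 4 times before Nr4a2, 3 times before Dusp1, 1 time before Fosb and 0 times before Fosl2. Windows were matched for 16 of the 20 listed genes: 8 windows for the 8 called genes, and 14 for 8 of the 12 genes not called, of which Egr2 has 5 and Maff 3. At least 1 core was present in 7 of the 8 windows of called genes (87.5%) and in 10 of the 14 windows of genes not called (71.4%), which belong to 7 of those 8 genes. Over all windows of the annotation it was 5836 of 32851 (17.8%), and over windows of tested genes 3303 of 12889 (25.6%). The 8-letter element, in which the core occurs on both strands and overlaps itself, was found in 1 of the 8 called windows, that of Dusp1 (12.5%), in 2 of the 14 windows not called (14.3%), in 1.55% of all windows and in 2.48% of windows of tested genes. These matches describe letters in the windows and were not set against the size of the rises.

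For each gene the co-culture level was also placed between the separate cultures on the linear scale, with 0% at the precursor mean and 100% at the neuron mean. The 715 genes at least 2-fold higher in neurons than in precursors had a median position of 22.3%, 23.8% and 21.7% in the 3 co-culture arrays (22.6% ± 1.13, SD, n = 3), and the middle part of the genes, between the quartiles, lay from 19% to 26%. The 624 genes at least 2-fold higher in precursors had median positions of 7.24%, 10.5% and 13.5% (10.4% ± 3.11, SD, n = 3). Positions of the called immediate early genes that differed at least 2-fold between neurons and precursors were higher than those quartiles: 46.1% ± 0 for Fosb, 42.3% ± 6.61 for Fos, 42.0% ± 2.94 for Nr4a3, 39.6% ± 0.126 for Npas4, 39.2% ± 0.232 for Fosl2, 36.3% ± 0.839 for Nr4a2 and 35.4% ± 0.201 for Nr4a1. Each SD is over the 3 co-culture arrays only, with the precursor and neuron means held fixed, and an SD of 0 marks equal co-culture values. Genes outside that list lay as high, among them Pcdh8 at 42.4% ± 3.23 and Slitrk2 at 39.9% ± 6.27, both chosen after their values were seen. Necab1 and Rgs4 had 33.4% ± 0.0225 and 33.3% ± 0.0514, whereas Gabrb1 had 23.9% ± 2.41 and Grin2b 23.7% ± 0.484. Toward the lower end were Ntsr1, a neurotensin receptor of layer 6 neurons, at 12.7% ± 0, and Rasgrf2, an exchange factor found in upper layers, at 15.5% ± 1.51. These positions are a description across genes that share the same 9 arrays, and their differences were not tested.

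**Figure D3:**
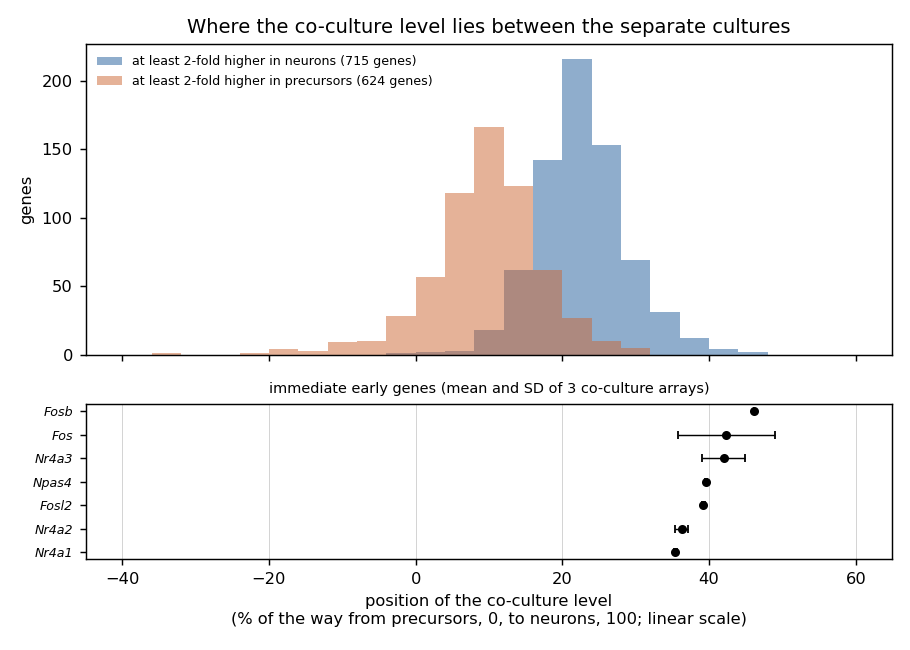
Number of genes (vertical axis) by position of the co-culture between precursors at 0% and neurons at 100% (horizontal axis) for 715 genes higher in neurons and 624 genes higher in precursors, with the 7 immediate early genes as points with SD over 3 arrays. The immediate early genes lie from 35.4% to 46.1%, right of the median of 22.6% of the neuron-high genes.

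Genes that follow neuronal activity later were higher in 10 of 24 cases (median 0.16). Pcsk1, a protease that processes neuropeptides, was at 6.30, 6.40 and 6.29 in precursors, 7.35, 7.20 and 7.10 in co-culture and 8.10 ± 0.099 in neurons (1.85-fold, adjusted p = 7.00e-05). Rgs2 differed by 0.42 (adjusted p = 0.00469), and did not pass with the mean of its probe sets in place of the highest (adjusted p = 0.0585). Of the 15 regulators of G protein signalling 6 rose, but the list median was only 0.062; Rgs7 rose 1.46-fold and Rgs6 1.35-fold. Rgs10 (1.27-fold) did not pass with precursor replicate 1 or 2, or co-culture replicate 1 or 2 left out (adjusted p = 0.0567 to 0.114), nor Rgs17 (1.17-fold) with precursor replicate 1 or 2, or co-culture replicate 1, 2 or 3 left out (adjusted p = 0.0544 to 0.0833).

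Neuropeptides and their receptors were higher in 12 of 18 cases, with a median of 0.47. Penk, the precursor of enkephalins, was at 6.56, 6.27 and 6.60 in precursors and 7.43, 7.43 and 7.37 in the co-culture (1.91-fold, adjusted p = 0.000445), and Cck, cholecystokinin, at 7.53, 7.52 and 7.48 and 8.26, 8.31 and 8.31 (1.72-fold, adjusted p = 2.83e-05). Neither overlapped. Ntsr1 rose 1.68-fold. Somatostatin (Sst) was at 11.20, 10.54 and 10.85 in precursors and 11.46, 11.37 and 11.40 in the co-culture, where precursor replicate 2 was far the lowest array. Its difference of 0.54 (adjusted p = 0.0348) did not pass with neuron replicate 1 or 3, precursor replicate 2 or 3, or co-culture replicate 1, 2 or 3 left out (adjusted p = 0.0503 to 0.127).

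Layer markers rose in part. Of 13 upper-layer genes 5 were higher. Mef2c, a transcription factor that restrains synapse number, went from 9.16, 9.18 and 9.14 to 10.30, 10.35 and 10.21 (2.18-fold, adjusted p = 1.50e-06), Rasgrf2 from 5.80, 5.52 and 5.39 to 6.63, 6.69 and 6.55 (2.07-fold, adjusted p = 0.000406), and Unc5d and Rorb rose 1.40-fold and 1.29-fold. The Rasgrf2 values of both groups lay under the array medians, and Rasgrf2 passed the filter through the neuron arrays only. Of 16 deep-layer genes 3 were higher (18.8%, against 8.22% of all tested genes), with a list median of 0.0035: Ldb2 (1.89-fold), Ntsr1 and Pcp4 (1.27-fold). Sox5, a deep-layer factor, was at 8.62, 8.75 and 8.69 in precursors and 8.82, 8.96 and 8.94 in the co-culture. Its difference of 0.22 did not pass (adjusted p = 0.0588) but did with the block (0.0164) and with neuron replicate 1 left out (adjusted p = 0.0438). In 7 tested genes of Cajal-Retzius cells, the early neurons of the marginal zone, 1 was higher (14.3%), Ndnf (0.35, adjusted p = 0.0145), which did not pass with precursor replicate 1 or 2, or co-culture replicate 2 or 3 left out (adjusted p = 0.0505 to 0.0700).

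Of 16 tested genes of GABAergic interneurons 5 were higher (median 0.10), and this count rested on single arrays: it was 3 with precursor replicate 2, precursor replicate 3 or co-culture replicate 3 left out, and 2 with co-culture replicate 1 or 2 left out. Erbb4, a neuregulin receptor of interneurons, was at 9.24, 8.73 and 9.19 in precursors and 9.82, 9.68 and 9.71 in the co-culture (1.61-fold, adjusted p = 0.00566). Gad1, which makes GABA, was at 8.13, 7.97 and 8.06 and 8.35, 8.35 and 8.35 (1.23-fold, adjusted p = 0.00764). Both kept their call in each fit with 1 array left out, and in Erbb4 precursor replicate 2 was again the lowest. Nr2f2, a factor of caudally born interneurons, rose 1.43-fold and did not pass with co-culture replicate 1 or co-culture replicate 2 left out (adjusted p = 0.0806 and 0.0574), and Maf (1.27-fold) did not pass with precursor replicate 1, 2 or 3, or co-culture replicate 1, 2 or 3 left out (adjusted p = 0.0559 to 0.118), nor with the mean of its probe sets (0.244). Over the 17 interneuron genes with a probe set the mean level was 8.74, 8.37 and 8.58 in the precursor arrays, 8.83, 8.58 and 8.73 in the co-culture arrays and 8.73 to 8.83 in the neuron arrays, with precursor replicate 2 lowest in 12 of the 17 genes. The part of this difference between precursor arrays in the result was not tested.

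**Figure D4:**
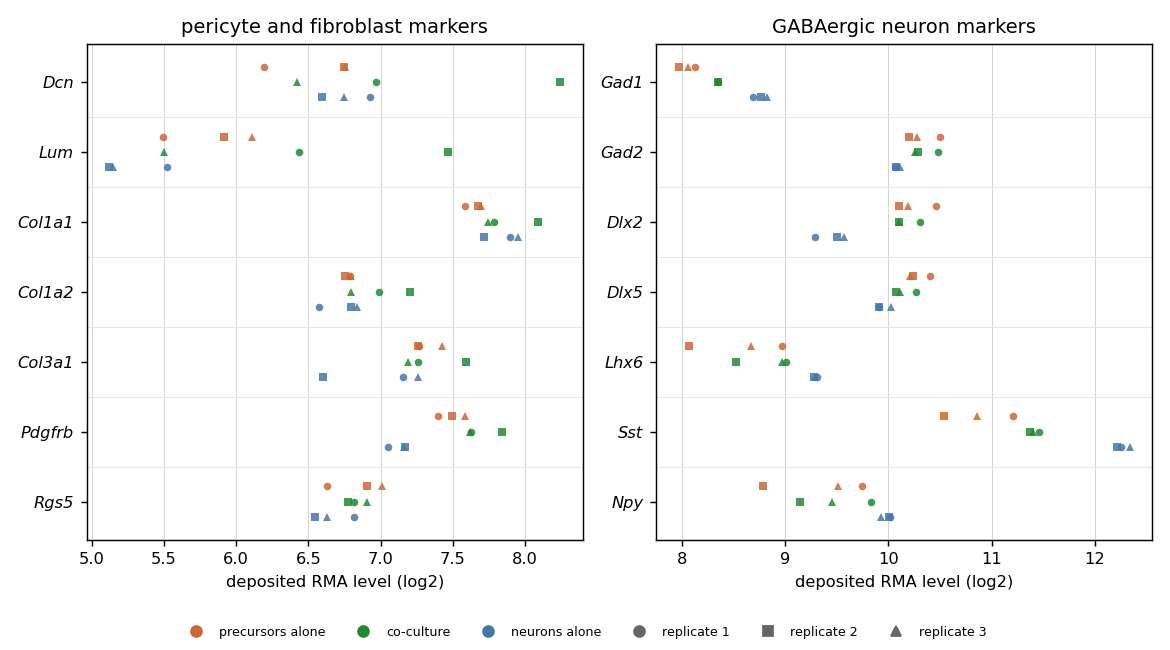
Log2 level (horizontal axis) in each of the 9 arrays for 7 markers of pericytes and meningeal fibroblasts and 7 of GABAergic neurons. Co-culture replicate 2 is highest for Dcn (8.25) and Lum (7.47), and Sst is lowest in precursor replicate 2 (10.54).

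Genes of the precursors themselves made up the other side of the comparison, and in the 4 lists that describe them 0 genes passed. Over all tested genes 8.22% were called higher and 0.2% lower. For lists of this size, 0 lower calls lies near that share and does not show that these genes held steady. All 29 cell cycle genes had a difference below 0 (median -0.11), and 2 of them, both lower, had an unadjusted limma p under 0.05. Mki67 differed by -0.11 (adjusted p = 0.723), Ccna2 by -0.17 (0.357) and Mcm6, a DNA replication helicase subunit, by -0.18 (0.159). Pcna, the replication clamp, was at 11.52, 11.47 and 11.49 in precursors and 11.33, 11.37 and 11.32 in the co-culture. These groups did not overlap, and the difference was -0.15 (SE 0.045, adjusted p = 0.0743). For 13 of the 29 genes all co-culture values lay below all precursor values, against 5.4% of all tested genes. Without neuron replicate 2, which contributes only to the pooled spread, 2 of the 29 were called lower, Pcna (adjusted p = 0.0466) and Mcm6 (0.0349).

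Among 23 radial precursor genes 22 differences were below 0 (median -0.10), and 1 passed an unadjusted p under 0.05. Sox2, which maintains the precursor state, was at 10.15, 9.98 and 10.11 in precursors, 9.92, 9.84 and 9.96 in co-culture and 8.13 ± 0.21 in neurons (-0.17, adjusted p = 0.428). Pax6, the patterning factor of cortical radial cells, was at 8.94, 9.08 and 9.02 and 8.83, 8.84 and 8.85 (-0.17, adjusted p = 0.574), and the intermediate filament gene Nes at 9.44, 9.32 and 9.52 and 9.27, 9.18 and 9.26 (-0.19, adjusted p = 0.494). All 3 had co-culture arrays below the precursor arrays by less than the test could separate from the pooled spread. Slc1a3, a glutamate transporter of radial cells, was the exception in sign, at 9.29, 9.07 and 9.12 and 9.35, 9.37 and 9.14 (0.13, adjusted p = 0.675). Of 16 genes of intermediate progenitors and newborn neurons 11 differences were below 0 (median -0.034; at an unadjusted p under 0.05, 1 higher and 2 lower). Eomes, the defining factor of intermediate progenitors, differed by -0.085 (adjusted p = 0.724). Hes6, which promotes neuronal differentiation, was at 9.52, 9.49 and 9.53 and 9.25, 9.34 and 9.38 (-0.19, adjusted p = 0.0522). Leaving out neuron replicate 1 or 2 gave 1 lower member, in the first case Hes6 (adjusted p = 0.0415).

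In the Notch pathway, with 24 genes tested, 0 passed (median -0.043; at an unadjusted p under 0.05, 3 higher and 4 lower). Of the ligands, Dll1 was at 8.55, 8.69 and 8.65 in precursors, 8.39, 8.37 and 8.37 in co-culture and 7.47 ± 0.21 in neurons, and Jag2 at 7.82, 7.62 and 7.72, 8.003, 7.93 and 8.003 and 8.59 ± 0.11. Dll1 lay lower and Jag2 higher in every co-culture array, by -0.25 (adjusted p = 0.158) and 0.26 (adjusted p = 0.0529). Dll1 passed without neuron replicate 2 (adjusted p = 0.0123), and Jag2 with neuron replicate 1 or 3, or precursor replicate 1 left out (adjusted p = 0.0323 to 0.0486). The ligand Jag1 (-0.025), the receptor Notch1 (-0.13) and the targets Hes1 (-0.042) and Hes5 (-0.12) differed with adjusted p between 0.376 (Notch1) and 0.963 (Jag1). Leaving out neuron replicate 1 or 3 or precursor replicate 1 gave 1 higher member, and leaving out neuron replicate 2 gave 2 lower members.

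Ligands and receptors through which neurons may act on precursors were listed family by family. For the neurotrophins and GDNF family, the ligands Bdnf, Ntf3 and Gdnf could not be tested or lay below the filter; Bdnf was at 6.21, 6.23 and 6.10 in precursors, 6.44, 6.47 and 6.45 in co-culture and 6.76, 6.44 and 6.65 in neurons. Nrtn, neurturin, was tested at 6.999, 6.66 and 6.74 and 6.81, 6.58 and 6.86, which overlapped (-0.051, adjusted p = 0.922). Of their 9 receptor genes 4 rose. Ntrk2, the BDNF receptor, was at 8.68, 8.90 and 8.77 in precursors, 9.74, 9.74 and 9.73 in co-culture and 10.86 ± 0.061 in neurons, with no overlap (1.93-fold, adjusted p = 1.03e-05). Gfra2, the neurturin receptor, was at 7.90, 7.60 and 7.82 and 8.30, 8.31 and 8.30 (1.44-fold, adjusted p = 0.00639). Ncam1, an adhesion molecule that also binds GDNF, was at 11.49, 11.50 and 11.57 and 11.74, 11.74 and 11.74 (0.22, adjusted p = 0.0109) and did not pass with each array centred on the median of the tested genes (0.0950) or with the spread of the neuron and precursor arrays only (0.0565). Ntrk3, the neurotrophin-3 receptor, differed by 0.20 (adjusted p = 0.0346) and did not pass with neuron replicate 1, precursor replicate 1 or 3, or co-culture replicate 1, 2 or 3 left out (adjusted p = 0.0505 to 0.155). Gfra1 and Ret, the GDNF receptor pair, differed by 0.059 (adjusted p = 0.745) and 0.18 (0.417).

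LIF-type cytokines, which drive precursors toward astrocytes, and interferons share Jak1 as a kinase. Of 12 genes of the first list 2 rose (16.7%), and of 13 of the interferon list also 2 (15.4%), against 8.22% of all tested genes. Lifr, the LIF receptor, was at 7.59, 7.65 and 7.59 in precursors, 7.95, 7.97 and 7.85 in co-culture and 8.78 ± 0.091 in neurons (0.31, adjusted p = 0.00745). Ifngr2, which forms the interferon gamma receptor together with Ifngr1, was at 9.09, 9.09 and 9.20, 9.48, 9.49 and 9.48 and 9.92 ± 0.029 (0.35, adjusted p = 0.000859). Both were separated from precursors in all arrays. Jak1, in both lists, differed by 0.21 (adjusted p = 0.0247) and did not pass with precursor replicate 2 or 3, or co-culture replicate 1 or 2 left out (adjusted p = 0.0732 to 0.116), so that each count was 1 in those fits. The ligands Ctf1 (-0.0073), Lif (-0.064) and Clcf1 (-0.10), the shared receptor chain Il6st (0.056) and Ifngr1 (-0.034) had adjusted p between 0.606 (Clcf1) and 0.988 (Ctf1), and their groups overlapped.

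Of 24 tested ligands from 5 growth factor families (FGF, EGF, PDGF, IGF and VEGF) 6 rose and 0 fell (median 0.11). Nrg3, a ligand of Erbb4, was at 8.67, 8.60 and 8.62 in precursors, 9.34, 9.45 and 9.24 in co-culture and 10.68 ± 0.047 in neurons (1.64-fold, adjusted p = 5.60e-05), and Fgf12, an FGF that stays inside the cell and binds sodium channels, at 8.15, 8.48 and 8.51, 9.15, 9.18 and 9.17 and 10.49 ± 0.11 (1.73-fold, adjusted p = 0.000584). These calls stood in each fit with 1 array left out. The other 4 were Igf1 (0.40), Fgf5 (0.40), Nrg2 (0.24) and Tgfa (0.23), and the list count was 3 with precursor replicate 2, precursor replicate 3 or co-culture replicate 2 left out and 2 with co-culture replicate 3 left out. Igf1 did not pass with precursor replicate 3, or co-culture replicate 2 or 3 left out (adjusted p = 0.0734 to 0.0956), nor Fgf5 with precursor replicate 2, or co-culture replicate 1 or 3 left out (adjusted p = 0.0601 to 0.0878). Nrg2 did not pass with precursor replicate 2 or 3, or co-culture replicate 1, 2 or 3 left out (adjusted p = 0.0546 to 0.0786), nor Tgfa with precursor replicate 2 or 3, or co-culture replicate 2 or 3 left out (adjusted p = 0.0531 to 0.0915). Igf2 was at 7.35, 7.34 and 7.31 in precursors and 7.37, 7.98 and 7.27 in the co-culture, with co-culture replicate 2 alone standing high (0.21, adjusted p = 0.643). Mdk, the growth factor midkine of precursors, was at 10.70, 10.69 and 10.77, 10.59, 10.65 and 10.65 and 8.08 ± 0.24 (-0.092, adjusted p = 0.751), and Pdgfa, Pdgfc, Ptn and Vegfa differed by 0.11, 0.090, 0.10 and -0.13 with adjusted p from 0.336 (Vegfa) to 0.729 (Pdgfa).

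Of the 24 matching receptors 4 rose (16.7%, against 8.22% of all tested genes), with a list median of -0.0019. Met, the receptor of hepatocyte growth factor, was at 7.03, 7.05 and 7.18 in precursors and 7.96, 7.98 and 7.87 in the co-culture (1.80-fold, adjusted p = 1.62e-05). Erbb4 and the proteoglycan Sdc3 (1.33-fold) rose too, and Nrp1 differed by 0.25 and did not pass with precursor replicate 1 or 2, or co-culture replicate 1, 2 or 3 left out (adjusted p = 0.0665 to 0.121). The FGF receptors of precursors were not called. Fgfr1 was at 10.25, 10.17 and 10.22 in precursors, 10.07, 10.09 and 10.05 in co-culture and 9.005 ± 0.017 in neurons, lower in all co-culture arrays by a small amount (-0.14, SE 0.040, adjusted p = 0.0644), and it passed under 4 of the 21 alternatives (adjusted p = 0.0164 to 0.0323). Fgfr2 (-0.051), Fgfr3 (0.035), Igf1r (-0.0068) and Egfr (0.10) had adjusted p between 0.480 (Egfr) and 0.978 (Igf1r).

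In the TGF-beta, BMP and activin family 6 of 24 genes rose (median 0.056), and the count was 3 with precursor replicate 2, co-culture replicate 2 or co-culture replicate 3 left out. Fst encodes follistatin, which binds and neutralises activin. Its precursor values were 7.57, 7.45 and 7.50, its co-culture values 8.69, 8.62 and 8.21 and its neuron values 8.14, 8.08 and 8.10. Every co-culture array was above every array of both separate cultures, with co-culture replicate 3 the lowest of the 3. The difference from precursors was 1.00 (SE 0.11, 2.00-fold, adjusted p = 0.000303), and that from neurons 0.40 (adjusted p = 0.00858). Inhba, the subunit that makes activin A, was at 6.997, 6.08 and 6.37 in precursors, 7.07, 7.50 and 7.42 in co-culture and 8.36, 8.47 and 8.58 in neurons. The precursor arrays were spread widely and precursor replicate 1 came close to the lowest co-culture array (0.85, SE 0.20, adjusted p = 0.0311). Inhba did not pass with precursor replicate 2 or 3, or co-culture replicate 2 or 3 left out (adjusted p = 0.0937 to 0.128), nor with the block (adjusted p = 0.0565). Acvr1, a type I receptor, and Smad7, an inhibitor of the pathway, rose by 0.30 (adjusted p = 0.00204) and 0.34 (adjusted p = 0.00977). Gdf10 (0.42) did not pass with precursor replicate 1, 2 or 3, or co-culture replicate 1, 2 or 3 left out (adjusted p = 0.0726 to 0.156) or with the block (0.0752), nor Fstl4 (0.35) with precursor replicate 1 or 2, or co-culture replicate 1, 2 or 3 left out (adjusted p = 0.108 to 0.131). Bmp7 and Tgfb2 differed by 0.012 and -0.027, with overlapping groups (adjusted p = 0.968 and 0.916).

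Of 31 tested Wnt pathway genes 3 rose, 9.68% against 8.22% of all tested genes. Apcdd1, a membrane inhibitor of Wnt signalling, was at 8.56, 8.57 and 8.49 in precursors, 8.86, 8.84 and 8.91 in co-culture and 8.32, 8.39 and 8.37 in neurons. All co-culture arrays were above all 6 arrays of the separate cultures, by 0.34 over precursors (SE 0.044, adjusted p = 0.00109) and 0.51 over neurons (adjusted p = 6.31e-06). The others were Rspo2, a Wnt agonist (0.34), and its receptor Lgr5 (0.29); Rspo2 did not pass with precursor replicate 2 or 3, or co-culture replicate 2 or 3 left out (adjusted p = 0.0613 to 0.0789), nor Lgr5 with precursor replicate 1, or co-culture replicate 1 or 2 left out (adjusted p = 0.0551 to 0.0795) or with the mean of its probe sets (0.107). Without co-culture replicate 2 the list count was 1. Wnt7b was higher in all co-culture arrays (0.27, adjusted p = 0.0810) and passed with the block (adjusted p = 0.0302) and with neuron replicate 2 or precursor replicate 1 left out (adjusted p = 0.0495 and 0.0463), whereas Wnt7a differed by -0.13 (adjusted p = 0.550).

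Of 38 axon guidance genes 11 rose, with a list median of 0.022; the count was 7 with co-culture replicate 1 left out and 6 with co-culture replicate 2 left out. Unc5c, a netrin receptor, was at 7.63, 7.68 and 7.81 in precursors and 8.77, 8.82 and 8.75 in the co-culture (2.10-fold, adjusted p = 6.38e-06), and Sema7a, a membrane-anchored semaphorin, and Efna3, an ephrin, rose 1.40-fold and 1.34-fold. Of 28 genes of matrix and integrins 4 rose (14.3%, against 8.22% of all tested genes). Sparcl1, a secreted protein of astrocytes and neurons, was at 6.97, 7.24 and 7.51, 8.16, 8.86 and 8.05 and 9.46, 9.67 and 9.57, with no overlap and with co-culture replicate 2 highest (2.17-fold, adjusted p = 0.00708). Tnr (1.69-fold) and Acan (1.51-fold), components of perineuronal nets, also rose, and Itga8 (1.34-fold) did not pass with precursor replicate 1, 2 or 3, or co-culture replicate 1, 2 or 3 left out (adjusted p = 0.0581 to 0.139), nor with the block (adjusted p = 0.0666).

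Lists of other cell types and of metabolism held few calls, apart from glycolysis with 5 of 20 (25%, against 8.22% of all tested genes). The share called higher was 4.35% for the respiratory chain, 6.67% for chemokines and cytokines and 6.67% for cholesterol synthesis, all under 8.22%. Sparcl1 was the 1 of 11 astrocyte genes that rose, and 0 of 6 oligodendrocyte, 0 of 9 microglial, 0 of 4 endothelial and 0 of 10 pericyte and fibroblast genes passed. The pericyte and fibroblast list had a median difference of 0.19. For 4 of its 10 genes all co-culture values lay above all precursor values, against 19.4% of all tested genes. The counts of the last 4 of these lists with an unadjusted limma p under 0.05 were 0, 0, 1 and 3, the 1 endothelial gene being lower and the 3 pericyte and fibroblast genes higher. Dcn, a matrix proteoglycan of fibroblasts, was at 6.20, 6.75 and 6.75 in precursors, 6.97, 8.25 and 6.42 in co-culture and 6.93, 6.60 and 6.75 in neurons, where co-culture replicate 2 stood far above all others (0.65, adjusted p = 0.462). Over the 14 fibroblast and pericyte genes the mean level was 7.20, 7.46 and 7.05 in the co-culture arrays and 6.99 to 7.15 in the precursor arrays, and 11 of the 14 genes were highest in co-culture replicate 2. The part of these cells in results that rest on that array was not tested. Of 15 chemokines and cytokines 1 rose, Cx3cl1, the fractalkine of neurons (1.44-fold, adjusted p = 0.0116); with the block 2 were called, Cxcl12 (0.28, adjusted p = 0.127) being at 0.0244. Of 20 genes of glycolysis 5 rose, led by Slc2a3, the neuronal glucose transporter (1.69-fold, adjusted p = 4.97e-05), and the count was 3 with precursor replicate 1, precursor replicate 2 or co-culture replicate 1 left out and 1 with co-culture replicate 2 or 3 left out. Among 23 genes of the respiratory chain and its regulators 1 rose, the coactivator Ppargc1a (1.45-fold, adjusted p = 0.000279). Of 15 cholesterol synthesis genes 1 rose, Pmvk (0.33, adjusted p = 0.00467), and 0 of 21 genes of amino acid and unfolded protein stress passed (1 higher at an unadjusted p under 0.05).

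A small set of genes rose above the level of neurons as well. Of the 1069 higher genes 13 had a co-culture mean above the neuron mean, and 5 of these had a neuron mean that was not above the precursor mean: Oasl2, Apcdd1, Cdh11, Cntn2 and Gmppb. Fst and Apcdd1, given above, were the only 2 of the 13 to keep their call under every alternative. Cdh11, an adhesion molecule of the cadherin family, was at 10.05, 10.15 and 10.15 in precursors, 10.37, 10.44 and 10.31 in co-culture and 10.13, 10.09 and 10.12 in neurons, a difference of 0.26 from precursors (adjusted p = 0.0102) that did not pass with co-culture replicate 2 left out (adjusted p = 0.0535). Gmppb, an enzyme of protein glycosylation, was at 6.86, 6.76 and 6.86, 7.07, 7.04 and 7.07 and 6.63, 6.63 and 6.65 (0.23, adjusted p = 0.00761), and did not pass with each array centred on the median of the tested genes (0.0556). Oasl2, an interferon response gene, was at 6.65, 6.23 and 6.63, 7.17, 6.83 and 7.11 and 5.98, 5.88 and 5.73. The co-culture arrays of both stood above the other 6 arrays, though for Oasl2 replicate 2 was low in precursors and in the co-culture alike (0.53, adjusted p = 0.0311), and Oasl2 did not pass with precursor replicate 2, or co-culture replicate 1 or 3 left out (adjusted p = 0.0803 to 0.130). The precursor and neuron values of Oasl2 lay under the array medians, so Oasl2 passed the filter through the co-culture arrays only. Cdh4, another cadherin, was at 8.81, 8.83 and 8.84, 9.10, 9.12 and 9.06 and 8.82, 8.92 and 8.92 (0.26, adjusted p = 0.00509), and with the mean of its probe sets did not pass (0.204). Cntn2, the axonal adhesion molecule TAG-1, was at 9.36, 9.37 and 9.36, 9.58, 9.65 and 9.60 and 9.11, 9.05 and 9.23 (0.24, adjusted p = 0.0191) and did not pass with precursor replicate 1, 2 or 3, or co-culture replicate 1, 2 or 3 left out (adjusted p = 0.0528 to 0.0915). The remaining 6, Sorl1, Ogdh, Micos10, Cldnd1, Rab10os and Thap4, were not called against neurons. Of these, Cldnd1, Rab10os and Thap4 lost the call against precursors with the block (adjusted p = 0.0586, 0.0683 and 0.0612).

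**Figure D5:**
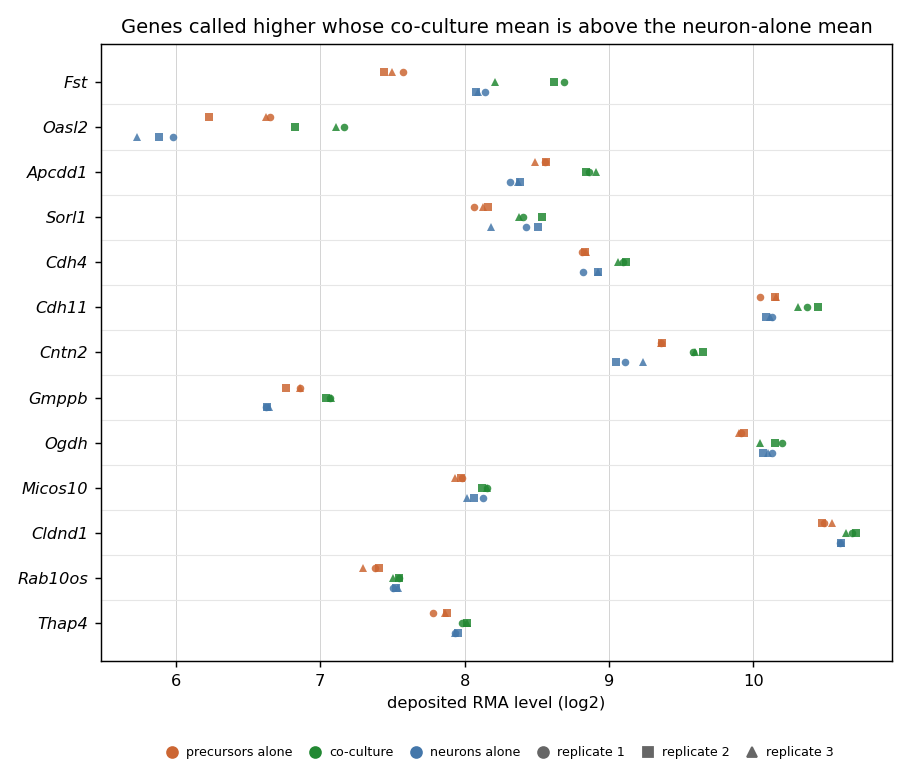
Log2 level on the horizontal axis for the 13 called genes whose co-culture mean lay above the neuron mean, 1 row per gene with 1 point per array. For Fst, Apcdd1, Gmppb, Oasl2, Cdh11, Cdh4 and Cntn2 all 3 co-culture points lie right of all neuron points.

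The 26 falls were all smaller than 1.61-fold. Largest were Mir101c (-0.68, given below), Speer4cos (-0.62), Vmn1r91 (-0.59), Olfr1085 (-0.56) and Olfr214 (-0.50). Then came Olfr1077-ps1 (-0.46), Olfr824 (-0.43), 2410141K09Rik (-0.43), Ftl1-ps2 (-0.40) and Olfr1502 (-0.39). In these 10 the neuron mean lay above the co-culture mean. Vmn1r91 and Olfr824 lost the call under 12 and 14 alternatives, the block among them (adjusted p = 0.071 and 0.0655). In 12 of the 26 falls the neuron mean lay below the co-culture mean. Stc1, the secreted glycoprotein stanniocalcin 1, was at 10.09, 10.23 and 10.15 in precursors, 9.86, 9.87 and 9.80 in co-culture and 9.14, 9.21 and 9.15 in neurons (-0.31, SE 0.050, adjusted p = 0.00349). St18, a zinc-finger transcription factor chosen like Stc1 after its values were seen, was at 8.60, 8.67 and 8.62, 8.35, 8.40 and 8.34 and 6.55, 6.65 and 6.58 (-0.27, SE 0.045, adjusted p = 0.00495). In both genes the 3 groups were fully separated, and both kept their call under every alternative. With falls of the same order came Ndc80 (-0.27) and Cdca8 (-0.26), which act at the kinetochore in mitosis, Tmpo (-0.20), a lamina-associated protein, Dach1 (-0.23), a transcriptional regulator of precursors, Akna (-0.25), a centrosomal protein of delaminating precursors, and Cldn12 (-0.27), a claudin; Tmpo, Dach1, Akna, Cdca8, Cldn12 and Ndc80 were chosen after their values were seen, as were Tmem163, Phf21b, Zscan21 and Wbp1, which completed these 12. With the block Dach1 and Wbp1 did not pass (adjusted p = 0.0563 and 0.0688), and with the mean of its probe sets Tmpo did not (0.574). In the other 14 the neuron mean lay above the co-culture mean, and 8 of the 26 were olfactory or vomeronasal receptors. Olfr1085 was at 7.54, 7.83 and 7.69 in precursors, 7.08, 7.04 and 7.27 in co-culture and 7.46, 7.27 and 7.45 in neurons, and Olfr1077-ps1 at 6.70, 6.89 and 6.69, 6.44, 6.15 and 6.32 and 6.95, 6.88 and 6.91. These fell by 0.56 and 0.46 on the log2 scale (adjusted p = 0.00373 and 0.00583) and kept their call under the 20 alternatives in which they were tested. The co-culture values of Olfr1077-ps1 all lay under the array medians, as did precursor replicates 1 and 3. Olfr1077-ps1 passed the filter through the neuron arrays and precursor replicate 2. Receptor genes of these families are highly alike, and whether related transcripts bound the same probes was not tested. The other 22 falls each lost the call without 1 of the co-culture arrays: 20 with co-culture replicate 1 left out, 19 with replicate 2 and 14 with replicate 3.

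MicroRNA genes were read by probe sets at their loci, which report the primary transcript and not a mature arm. Of 179 tested, 11 were higher (6.15%, against 8.22% of all tested genes) and 2 lower (median 0.035), a share of rises near the background. Mature sequences are shown for 5 loci that rose or fell most or that sit in a known neuronal host, from RefSeq on GRCm38.p6, with the seed (bases 2 to 8) in capitals.
miR-128-3p (Mir128-2, chr9:112118644-112118664, minus strand): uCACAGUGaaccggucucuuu
miR-218-5p (Mir218-1, chr5:48223966-48223986, plus strand): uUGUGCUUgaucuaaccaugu
miR-690 (Mir690, chr16:28599940-28599961, minus strand): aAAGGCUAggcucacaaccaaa
miR-323-3p (Mir323, chr12:109712558-109712578, plus strand): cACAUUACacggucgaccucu
miR-101c (Mir101c, chr9:3038680-3038698, minus strand): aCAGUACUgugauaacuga
Among the 24 mature sequences of the 13 called loci, 0 shared a seed with another. Mir690 was at 5.14, 5.65 and 4.89 in precursors, 6.35, 6.79 and 6.44 in co-culture and 8.52 ± 0.21 in neurons (1.30, adjusted p = 0.00212), chosen with the other microRNA genes after their values were seen. Mir128-2, whose locus lies in an intron of Arpp21, was at 5.71, 5.39 and 5.56, 6.22, 6.29 and 6.15 and 7.54 ± 0.14 (0.67, adjusted p = 0.00143), and Arpp21, a regulator of neuronal calmodulin signalling, rose by 0.46 (adjusted p = 0.00654). Mir218-1, in an intron of Slit2, was at 7.24, 7.72 and 7.49, 8.10, 8.28 and 8.14 and 8.97 ± 0.068 (0.69, adjusted p = 0.00308), and Slit2, a repulsive guidance ligand, rose by 0.27 (adjusted p = 0.0450). Slit2 lost its call with neuron replicate 3, precursor replicate 1 or 3, or co-culture replicate 1, 2 or 3 left out (adjusted p = 0.0633 to 0.155), as it did with the block (0.0718). The co-culture arrays of these loci and hosts all lay above the precursor arrays. Mir128-2 and Mir323 lay under the array medians in all precursor and co-culture arrays and passed the filter through the neuron arrays only. On chromosome 12, in the imprinted Dlk1-Dio3 region, Mir323 (0.73), Mir380 (0.65), Mir341 (0.34) and Mir1188 (0.29) rose; Mir380 did not pass with precursor replicate 1, 2 or 3, or co-culture replicate 1 or 2 left out (adjusted p = 0.0619 to 0.115) or with the mean of its probe sets (0.0781), nor Mir1188 with precursor replicate 2 or 3, or co-culture replicate 1 or 2 left out (adjusted p = 0.0546 to 0.0793). Mir101c was at 8.29, 8.35 and 7.97 in precursors, 7.53, 7.44 and 7.60 in co-culture and 8.38, 8.86 and 8.46 in neurons, lowest in the co-culture, and its difference of -0.68 (adjusted p = 0.0103) did not pass with co-culture replicate 2 left out (adjusted p = 0.0510).

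Many co-culture values were equal between arrays. Of the 1069 higher genes 324 (30.3%) held the same value in at least 2 co-culture arrays, 55 of them in all 3, against 1 in the precursor arrays and 2 in the neuron arrays. Among genes not called, the shares were 9.94% in the co-culture and 6.17% in precursors. The median SD of the higher genes was 0.0345 over the co-culture arrays and 0.0702 over the precursor arrays. With the spread taken from the neuron and precursor arrays only, an alternative chosen after seeing the data, 706 genes were higher, 14 were lower and 53 were at least 2-fold higher.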

How the data were processed

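RNA of 9 mouse cortical cultures was hybridised to Affymetrix arrays, 3 per group, and 6 of these arrays are compared here. The deposited log2 values per probe set had been made by the authors with RMA in oligo, as the submitters' processing notes list them; versions and the genome build are not given in the sources used here. All value columns matched a sample (0 unmapped). RMA sets all arrays to 1 common distribution, so a shift of all genes together would not show.

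Of 41345 probe sets 23521 had 1 gene symbol, 1814 several and 16010 none, and only the first kind was used. Where a gene had more than 1 probe set (1082 of 22180 genes), the brightest on average was taken, and 13012 genes above the array median in at least 3 arrays were tested. limma 3.58.1 in R 4.3.3 (lmFit and eBayes, two-sided, Benjamini-Hochberg over all tested genes, threshold 0.05) was fitted to all 9 arrays with group as the only term, so that the neuron arrays add to the pooled spread. The script was tested on simulated data.

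Deviations from the group means correlated at 0.345, 0.3 and 0.161 between co-culture and precursor arrays of the same replicate number, all over 0.1, so the numbers were taken to pair these 2 groups. A fit of all 9 arrays with the number as a block is quoted where it changes a call. That fit blocks the neuron arrays too. Their deviations correlated with precursor arrays of the same number at 0.00431, 0.134 and -0.148, and with co-culture arrays at -0.00511, 0.268 and 0.17.

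The comparison and the gene lists were chosen with earlier results of these data known. Genes are named by a rule: the 15 largest rises and 10 largest falls, the largest rises in which neurons were not above precursors or the co-culture was above neurons, the 4 largest differences in each list plus its called genes where these were 8 or fewer, and a set of growth factor, precursor and neuron genes whatever their values. Alternatives changed the arrays, the block, the scaling, the filter, the probe set rule, the variance model and each replicate in turn.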

Additional observations from a re-analysis of the deposited data

How the results depend on the processing

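No called gene among those named changed direction under an alternative, whereas 19 of the 93 named genes not called, such as Nrtn and Tubb3, had differences on both sides of 0. The count of higher genes (1069) ran from 676, without co-culture replicate 2, to 1138, without neuron replicate 2, when single replicates were left out. With each array centred on the median of the tested genes, chosen after seeing the data, the higher count was 692 and the lower 98, which put the share of rises among all calls at 87.6% against 97.6%, and the median difference of all genes moved from 0.020 to -0.042; with no filter it was -0.0042. With the spread of the neuron and precursor arrays only, 706 were higher and 14 lower. The count of lower genes (26) was the least stable: it was 57 with only the 6 arrays compared, 42 with the replicate block and 65 with the block on those 6 arrays, 40 with no filter, 43 with the filter at the 75th percentile, 42 with an intensity trend and 87 with array weights, and it ran from 7 to 52 when single replicates were left out. The median position of the neuron-high genes was 21.3% with cyclic loess in place of 22.6%. Of 159 genes named by the rule and called, 110 kept the call under each of the 21 settings in which they were tested (64 of the named genes, called or not, fell below the filter at the 75th percentile) and 49 lost it under at least 1; of the 93 not called, 20 were called under at least 1. The count at least 2-fold higher stayed between 48 and 54 when single replicates were left out. Causes of these shifts were not tested. Differences under about 0.2 lie near what 3 arrays a group can separate.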

Other observations

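Several gene families outside the lists held many called genes; they were chosen after their values were seen. All 5 tested Slitrk genes, membrane proteins that organise synapses, rose, from 0.39 for Slitrk1 to 0.84 for Slitrk4, and Slitrk4 was at 7.36, 7.12 and 7.18 in precursors and 8.08, 8.08 and 8.03 in the co-culture. All 3 Csmd genes rose (Csmd1 0.74, Csmd3 0.70, Csmd2 0.32), as did all 3 testicans, secreted proteoglycans of the brain (Spock3 2.25-fold, Spock1 1.96-fold, Spock2 1.46-fold). The soluble guanylate cyclase subunits Gucy1a1 (2.99-fold) and Gucy1b1 (2.09-fold), which form the receptor for nitric oxide, rose together. Gucy1a2 (0.21) did not pass with precursor replicate 2 or 3, or co-culture replicate 1 or 2 left out (adjusted p = 0.0944 to 0.128), nor with the block (0.0510). Of 3 Lgi genes 2 rose, Lgi1 2.10-fold and Lgi2 2.08-fold, and of 5 Plppr genes 3, with Plppr4 2.64-fold beside Plppr5. Teneurins, which bridge pre- and postsynaptic membranes, rose in 3 of 4 cases (Tenm1 0.88, Tenm2 0.81, Tenm3 0.31), Lrrtm genes in 3 of 4 and adenylate cyclases in 4 of 6 (Adcy1 0.94).

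Cadherins divided. Of 18 classical and related cadherins 8 rose. Cdh10 (8.76, 8.90 and 8.94 in precursors, 9.67, 9.69 and 9.67 in the co-culture), Cdh9 (1.74-fold), Cdh8 (1.57-fold) and Cdh13 (1.57-fold) had neuron levels above the co-culture, whereas Cdh4 and Cdh11 had neuron levels below it (8.82, 8.92 and 8.92 and 10.13, 10.09 and 10.12). Of 30 protocadherins 7 rose, among them Pcdh20 (1.88-fold) and Pcdh8 (1.48-fold).

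Olfactory and vomeronasal receptor genes had medians below 0: 88 tested Olfr genes had 0 higher, 7 lower and a median difference of -0.096, and 18 Vmn genes had 0 higher, 1 lower and a median of -0.28. Their median precursor levels were 7.07 for Olfr and 7.36 for Vmn genes, above the array medians of 6.75 to 6.80. Over all 22180 genes the 5545 dimmest had a median difference of -0.048, with 70.2% below 0. The 5545 next above them in level had -0.017, with 57.7% below 0. The 5545 above those had 0.023, with 40.2% below 0, and the 5545 brightest 0.023, with 39.1% below 0. Whether the receptor medians follow from signal level was not tested. The lower quartile of all 41345 probe sets, with or without a gene symbol, was 5.53 to 5.56 in the co-culture arrays and 5.58 to 5.59 in the precursor arrays.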
